A study of Mus musculus with 2 samples.

Results

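The ligands, receptors and coreceptors of the vascular endothelial growth factor (VEGF) family are described here by 9 genes, out of 32285 genes counted in 2 single-cell RNA libraries of Lewis lung carcinoma (LLC) tumors. The 9 were taken by their symbols: the ligands Vegfa, Vegfb, Vegfc and Pgf, the receptors Flt1 (VEGFR1), Kdr (VEGFR2) and Flt4 (VEGFR3), and the coreceptors Nrp1 and Nrp2. LLC is a mouse lung carcinoma line, and its cells were inoculated into C57BL/6 mice at 8 weeks of age and grown for 2 weeks. The sGC-Ctr library came from Gucy1b1 flox/flox mice. The sGC-ΔPC library came from Cspg4-CreERT2::Gucy1b1 flox/flox mice (the label of the deposited sample spells the gene Gucyc1b1), in which tamoxifen removes Gucy1b1, the β1 subunit of the nitric oxide receptor soluble guanylate cyclase (sGC). Both groups carried the floxed alleles and both were given tamoxifen 5 times, from 4 weeks of age. The controls carried no Cre, and Cspg4 (NG2), whose locus drives the Cre, is active in pericytes and in other NG2-positive cells of the host, while the inoculated tumor cells carry neither allele. Each library holds the pooled cells of 3 tumors, so genotype, library and tumor pool cannot be told apart, no test between the groups was possible, and every 95% interval given here covers counting error only.

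VEGF-A binds FLT1 and KDR, and KDR carries most of its growth signal in endothelial cells (ECs), while FLT1 binds the ligand tightly, signals weakly and also exists as a soluble decoy. Of the receptors FLT1, KDR and FLT4, placental growth factor (PGF) and VEGF-B bind FLT1 only, while VEGF-C binds FLT4 and, once processed, KDR. The neuropilins NRP1 and NRP2 hold VEGF and class 3 semaphorins at the cell surface. In tumors, low oxygen is a textbook inducer of Vegfa through the HIF factors, and pericytes receive growth and survival signals from the ECs that they wrap.

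The 9 genes lie on 7 chromosomes of the mouse genome (GRCm38, the assembly behind the mm10 build that the counts used), and all are annotated as protein coding. Among the ligands, Vegfa lies at chr17:46016993-46032369 on the minus strand, Vegfb at chr19:6982473-6987651 on the minus strand, Vegfc at chr8:54077606-54187096 on the plus strand and Pgf at chr12:85166635-85177790 on the minus strand. Flt1 (chr5:147561604-147726011) and Kdr (chr5:75932827-75978458) both lie on the minus strand of chromosome 5, Flt4 at chr11:49609263-49652739 on the plus strand, Nrp1 at chr8:128358604-128503363 and Nrp2 at chr1:62703285-62818695, both on the plus strand. The libraries count the 3′ ends of transcripts, 1 unique molecular identifier (UMI) per molecule, so a level needs no length correction, and splice forms such as those of Vegfa or the soluble form of Flt1 were not told apart.

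The promoters of Flt1 and Kdr are shown because the number of Flt1 UMIs per Kdr UMI differed between the cell classes, and those of Vegfa and Pgf because both ligands were followed along a hypoxia score. Each run is RefSeq sequence (GRCm38.p6, minus strand), 5′ to 3′, of 250 bases before and 50 bases from the annotated start, and capitals mark the motifs searched on both strands.
Flt1 (chr5:147725962-147726261): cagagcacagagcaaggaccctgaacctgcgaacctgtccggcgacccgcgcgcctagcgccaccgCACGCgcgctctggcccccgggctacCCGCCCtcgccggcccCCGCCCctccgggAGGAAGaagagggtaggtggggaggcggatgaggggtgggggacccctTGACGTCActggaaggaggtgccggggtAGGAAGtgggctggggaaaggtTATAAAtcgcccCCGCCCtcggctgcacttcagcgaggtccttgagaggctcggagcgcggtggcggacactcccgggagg
Kdr (chr5:75978406-75978705): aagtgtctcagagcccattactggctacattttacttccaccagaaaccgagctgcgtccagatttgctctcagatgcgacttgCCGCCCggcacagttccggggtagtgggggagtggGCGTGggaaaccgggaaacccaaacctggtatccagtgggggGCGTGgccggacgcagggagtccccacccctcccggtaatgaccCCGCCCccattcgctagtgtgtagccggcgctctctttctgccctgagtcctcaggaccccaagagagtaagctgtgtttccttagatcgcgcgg
Vegfa (chr17:46032328-46032627): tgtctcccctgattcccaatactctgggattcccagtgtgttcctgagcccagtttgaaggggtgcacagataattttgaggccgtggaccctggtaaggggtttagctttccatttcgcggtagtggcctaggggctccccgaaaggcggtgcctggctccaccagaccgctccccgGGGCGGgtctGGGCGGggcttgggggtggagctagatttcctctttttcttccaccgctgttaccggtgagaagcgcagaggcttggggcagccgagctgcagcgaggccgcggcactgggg
Pgf (chr12:85177264-85177563): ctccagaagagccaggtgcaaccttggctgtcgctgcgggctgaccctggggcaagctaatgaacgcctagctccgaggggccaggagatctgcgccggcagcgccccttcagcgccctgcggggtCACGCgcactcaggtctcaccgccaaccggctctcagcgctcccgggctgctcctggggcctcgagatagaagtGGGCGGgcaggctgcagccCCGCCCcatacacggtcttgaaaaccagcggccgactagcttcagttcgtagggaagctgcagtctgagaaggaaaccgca
The motifs were TATAAA (the TATA box), TGACGTCA (a cyclic AMP response element), AGGAAG (an ETS site), GGGCGG (a GC box) and the core of the hypoxia response element. This core was searched as the letters ACGTG, and the other spelling GCGTG was counted with it. The window of Flt1 held all 5, with the TATA box at position -31 from the start, the cyclic AMP response element at -81 and ETS sites at -129 and -53. The window of Kdr held neither a TATA box, a cyclic AMP response element nor an ETS site in these letters, but GC boxes at -166 and -45 and hypoxia cores at -131 and -89. Pgf held 1 hypoxia core at -124, and this Vegfa window held none. The window of a second RefSeq start of Vegfa, which lies inside the gene at chr17:46025114-46025413, had cores at -218 and -211. That of a second RefSeq start of Pgf, inside the gene at chr12:85175933-85176232, held none of the 5 motifs. Of 32851 mouse promoters of this length, 13.6% held the TATA letters, 1.79% the cyclic AMP element, 35.4% the ETS letters, 35.7% a GC box and 43.8% a hypoxia core. These matches describe the letters and name no bound factor.

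The sGC-Ctr library held 15007 barcodes and the sGC-ΔPC library 25631, of which 12220 (81.4%) and 22498 (87.8%) passed quality control with medians of 35776.5 and 8685 UMIs. A cell entered a class where its UMIs of that class's marker genes passed a threshold and those of every other class stayed low, and 79.3% and 60.6% of the cells were placed. Paired values below are always given for sGC-Ctr first and sGC-ΔPC second. The classes were cancer cells (6897.0 and 10202.0 cells, median 51441 and 16196 UMIs), macrophages (2368.0 and 2985.0), ECs (55.0 and 53.0, median 23410 and 12033 UMIs), fibroblasts (104.0 and 134.0) and pericytes (34 and 24). Granulocytes (163.0 and 176.0) and T cells (70.0 and 67.0) were 2 further classes. Whether receptor UMIs in these 2 classes come from free RNA was not tested. All markers of each class were detected in its cells in both libraries, and no marker of another class was among the 10 leading genes of any class. Both follow in part from the rule that placed the cells and are no independent check of the classes. The leading genes of pericytes included Myh11 and Myl9, genes of smooth muscle contraction. No smooth muscle class was set, so smooth muscle cells in the pericyte class were not told apart. The level of 4 cancer-cell markers in ECs was 5.29% and 4.63% of that in cancer cells, and in pericytes 4.94% and 9.04%. These values are held down by the same rule, which dropped cells with more of these markers. With such cells taken in, the level was 15.2% and 31.1% in ECs (68 and 97 cells). In pericytes it was then 14.3% and 31.8% (37 and 44 cells). The 2 libraries shared 131 barcodes, and leaving these out moved none of 32 ratios between libraries beyond its interval.

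Gucy1b1, the deleted gene, was found in pericytes at 131 CPM (98.7 to 170.5) in sGC-Ctr and 45.3 CPM (21.7 to 83.2) in sGC-ΔPC, from 55 and 10 UMIs. Its log2 ratio of sGC-ΔPC over sGC-Ctr was -1.53 (-2.67 to -0.55), and 64.7% and 25% of pericytes held a UMI of it. Gucy1b1 was thus lower in the library labelled as deleted, as its label says, but not absent. It gave at most 9 UMIs in any other class.

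Vegfa was made in many cells, with its highest level in fibroblasts. Levels (CPM) are UMIs of the gene per 1000000 UMIs of the class in a library, with the interval in brackets. Vegfa stood at 260.0 CPM (240.0 to 281) in sGC-Ctr and 318 CPM (292 to 347) in sGC-ΔPC in fibroblasts. Granulocytes followed at 81.1 and 162 CPM, macrophages at 62.4 and 109 CPM and pericytes at 42.9 and 31.7 CPM. Cancer cells were lower, at 16.7 and 21.8 CPM, and ECs lower again, at 7.73 and 12.6 CPM from 11 and 13 UMIs. Fibroblasts stood above every other class in both libraries by intervals that did not overlap. In sGC-Ctr the intervals of granulocytes, macrophages and pericytes overlapped. In sGC-ΔPC those of pericytes (12.7 to 65.3 CPM, 7 UMIs), cancer cells (21.3 to 22.3 CPM) and ECs (6.68 to 21.5 CPM) overlapped. T cells held 1 and 8 UMIs (3.97 and 25.0 CPM), with intervals that overlapped those of ECs. The part of free RNA in these low levels was not tested.

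Vegfb had another pattern, with cancer cells alone at the top. It stood at 108 and 108 CPM in cancer cells, and between 22.4 and 36.7 CPM in the other main classes and granulocytes of both libraries. With every cell thinned to 2000 UMIs, which makes cells of unequal depth comparable, 18.2% and 18.7% of cancer cells had a Vegfb UMI, against 5.47% and 4.65% of macrophages (unthinned 95.1% and 75.3%, and 23.4% and 16.9%). The order among fibroblasts, pericytes, ECs, macrophages and granulocytes could not be set, since their intervals overlapped, except that macrophages lay below fibroblasts in sGC-Ctr.

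Vegfc and Pgf were highest in ECs, the cells that also carry their receptors. Vegfc stood in ECs at 40.0 CPM (30.3 to 51.9) in sGC-Ctr and 21.2 CPM (13.3 to 32.2) in sGC-ΔPC. It was lower in fibroblasts (10.4 and 12.1 CPM) and cancer cells (5.49 and 6.72 CPM), and near 1 CPM in macrophages (1.09 and 1.04 CPM). In sGC-ΔPC the intervals of ECs and fibroblasts overlapped. Pericytes held 0 UMIs of Vegfc in either library, with upper limits of 8.79 and 16.7 CPM. Pgf was far more abundant, at 292 CPM (265 to 322) in sGC-Ctr and 384 CPM (347 to 424) in sGC-ΔPC in ECs and 118 and 121 CPM in fibroblasts. The fibroblast level rests on few cells, with 65 of 283 and 80 of 201 UMIs in 1 cell of each library, 50% or more in 4 and 2 cells, and a median over cells of 0. Pericytes came next with 61.9 and 18.1 CPM, from 26 and 4 UMIs, a range that reached the level of cancer cells in sGC-ΔPC, while cancer cells (5.41 and 6.00 CPM) and macrophages (3.12 and 3.36 CPM) stood more than 10-fold below fibroblasts.

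The 3 VEGF receptors were led by ECs, and Flt1 was the most abundant of them. Flt1 stood in ECs at 1009 CPM (957 to 1062) in sGC-Ctr and 828 CPM (774 to 886) in sGC-ΔPC. Its second class was pericytes, at 341 CPM (287 to 401) in sGC-Ctr and 222 CPM (164 to 293) in sGC-ΔPC. The pericyte level rests on few cells, with a median over cells of 139 and 0 CPM. All other classes were at 8.44 CPM or lower, the level of fibroblasts in sGC-ΔPC, and T cells held none. Kdr, the main signaling receptor, stood in ECs at 293 CPM (266 to 322) in sGC-Ctr and 278 CPM (247 to 312) in sGC-ΔPC. In pericytes it had 0 UMIs in both libraries, with upper limits of 8.79 and 16.7 CPM, so that 143 and 49 Flt1 UMIs were counted in pericytes beside no Kdr UMI. Flt4, the receptor of VEGF-C and a marker of lymphatic and sprouting endothelium, stood in ECs at 81.5 CPM (67.3 to 97.7) in sGC-Ctr and 63.7 CPM (49.3 to 81.1) in sGC-ΔPC. It was at most 18 UMIs in any other class.

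The number of Flt1 UMIs per Kdr UMI therefore differed between the classes. In ECs it was 3.44 (3.09 to 3.85) and 2.98 (2.60 to 3.42). In pericytes, with no Kdr UMI, the lower limit of the interval was 38.3 in sGC-Ctr and 12.8 in sGC-ΔPC. Of the 10 EC markers, 6 (Pecam1 among them) were at 0 in the pericytes of each library, and the highest, Ecscr, stood at 15.1% and 20.9% of its EC level. Cells with EC markers above a low limit had been left out of the pericyte class. The low values of these markers therefore follow in part from the class rule, in which Flt1 had no part. Flt1 in pericytes stood at 33.8% and 26.8% of its EC level, and the part of RNA from ECs in it was not tested.

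Outside these classes the receptor levels were low, and Flt1 and Kdr did not keep to 1 ratio. In cancer cells Flt1 stood at 0.443% and 0.514% of its EC level, above Kdr (0.0770% and 0.167%) and Flt4 (0.0252% and 0.0924%). The 10 EC markers in cancer cells had a median of 0.0701% and 0.0846% of their EC level and ranged from 0.0203% (Cldn5) to 2.56% (Egfl7) in sGC-Ctr and from 0.0495% (Gpihbp1) to 2.98% (Egfl7) in sGC-ΔPC. Kdr was thus near that median in sGC-Ctr and above it in sGC-ΔPC, Flt4 below it and near it, and Flt1 above it in both libraries but within the range, with 19.8 (16.0 to 24.8) and 9.18 (7.71 to 11.0) Flt1 UMIs per Kdr UMI. In macrophages the order was the other way round. Kdr stood at 1.40% and 1.34% of its EC level and Flt1 at 0.180% and 0.290%, with 0.442 (0.311 to 0.623) and 0.644 (0.455 to 0.906) Flt1 UMIs per Kdr UMI, and the EC markers had a median of 0.134% and 0.126%. Cells with EC markers above a low limit had been left out of both classes, a rule in which the receptors had no part. The EC-marker medians are therefore held down by that rule, and the part of RNA from ECs in the receptor levels was not tested. The share of macrophages with a Kdr UMI was 0.721% and 1.20% at 2000 UMIs (unthinned 3.84% and 2.55%), against 0 of 163.0 and 176.0 granulocytes and 0 of 70.0 and 67.0 T cells, whose median depths were 2149 and 2379 and 2886 and 3686 UMIs. A count of 0 allows up to 10.3 and 8.77 CPM in granulocytes, which is above the 4.09 and 3.73 CPM of macrophages, so that a difference between these classes was not detectable at this depth.

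**Figure D1:**
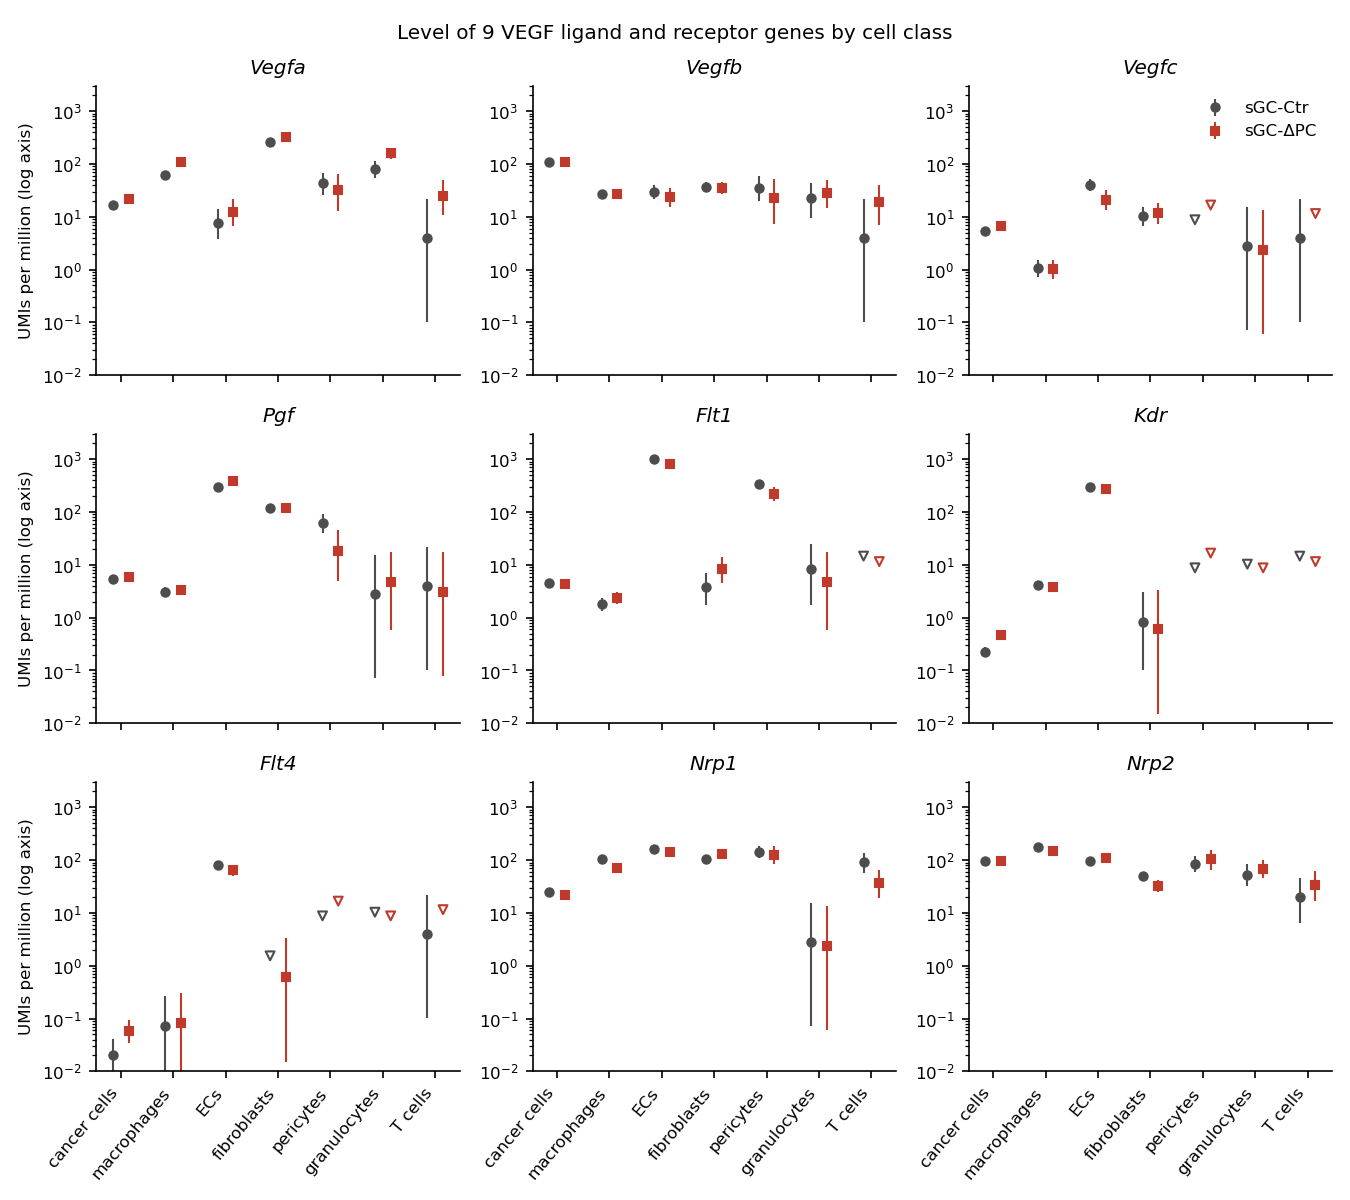
Levels of the 9 genes in 7 cell classes, in CPM on a log axis, for sGC-Ctr (circles) and sGC-ΔPC (squares), with 95% counting intervals as bars and open triangles at the upper limit where a class held no UMI. Vegfa peaked in fibroblasts, Vegfb in cancer cells, and Flt1, Kdr and Flt4 in ECs, with Flt1 also at 341 and 222 CPM in pericytes.

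The coreceptors were spread widely. Nrp1 stood between 72.1 and 165 CPM in ECs, pericytes, fibroblasts and macrophages, with the highest values in ECs (165 CPM (145 to 188) in sGC-Ctr and 143 CPM (121 to 168) in sGC-ΔPC). The intervals of ECs, pericytes and fibroblasts overlapped in sGC-ΔPC, and those of ECs and pericytes in sGC-Ctr. Cancer cells were lower, at 25.3 and 21.8 CPM, and granulocytes held 1 UMI in each library. T cells held 23 and 12 UMIs (91.3 and 37.5 CPM). Nrp2 was highest in macrophages, at 174 CPM (169 to 179) in sGC-Ctr and 146 CPM (141 to 150.4) in sGC-ΔPC. Cancer cells (96.5 and 96.4 CPM), ECs (96.2 and 109 CPM) and pericytes (85.7 and 104 CPM) followed with intervals that overlapped, that of pericytes in sGC-ΔPC also with macrophages. Granulocytes were at 53.1 and 69.0 CPM and fibroblasts at 49.6 and 32.5 CPM.

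A class with a modest level can hold most of a gene's RNA where its cells are many and deep. Cancer cells held 58.3% and 47.2% of all Vegfa UMIs in the kept cells, macrophages 15.4% and 18.6%, and fibroblasts, with the highest level, 5.57% and 3.74%. Cells placed in no class held 20.2% and 29.8%. Of the Vegfb UMIs 88.7% and 82.0% were in cancer cells, and of the Vegfc UMIs 81.6% and 79.0%, although the Vegfc level was highest in ECs. ECs held 11.0% and 11.3% of Pgf, 34.5% and 28.5% of Flt1, 49.4% and 35.4% of Kdr and 71.2% and 51.6% of Flt4. They made up 0.450% and 0.236% of the kept cells. Of Flt1, 41.9% and 43.3% lay in cancer cells at only 4.47 and 4.26 CPM. These shares depend on how many cells of each class were captured.

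**Figure D2:**
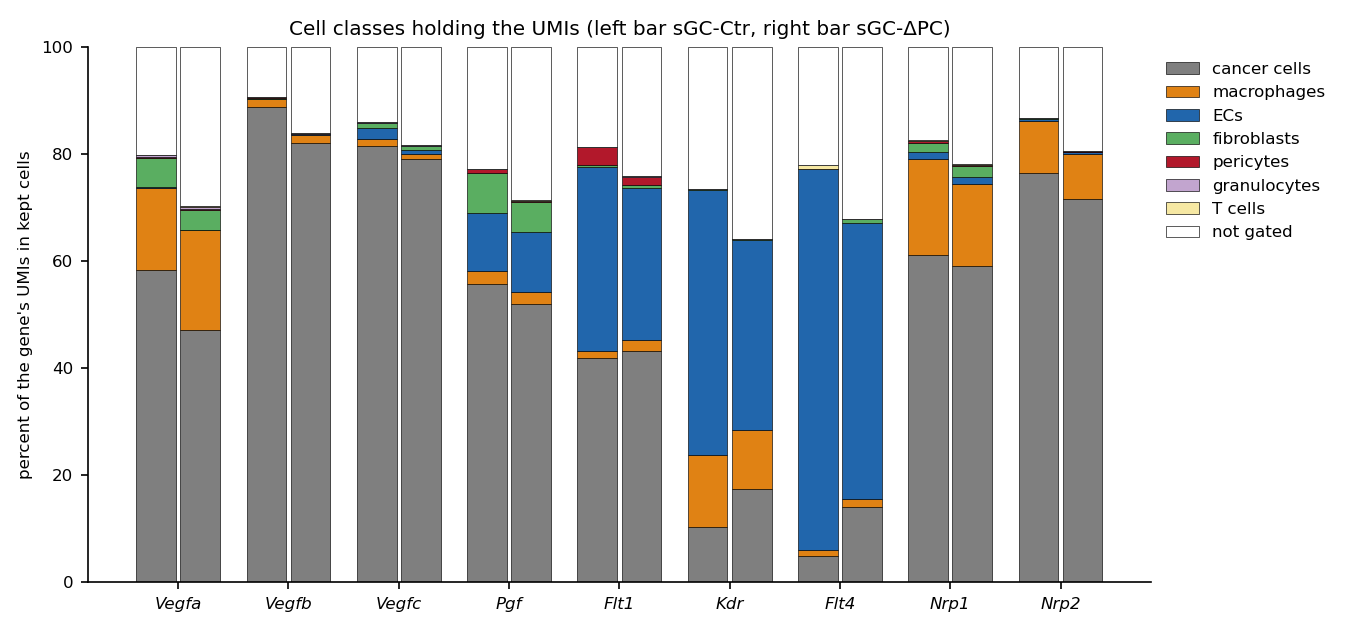
Percent of each gene's UMIs in the kept cells that lay in each cell class, with the sGC-Ctr library as the left bar and the sGC-ΔPC library as the right bar of each pair. Cancer cells held the largest part of Vegfa, Vegfb, Vegfc, Pgf, Flt1, Nrp1 and Nrp2 in both libraries, while among the placed classes ECs held the most of Kdr (49.4% and 35.4%) and of Flt4 (71.2% and 51.6%).

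Between the libraries, a gene was counted as apart where its levels differed at least 2-fold with an interval that left out 0 on the log2 scale, among genes with at least 50 UMIs over both libraries. Of the 8 members with enough UMIs in cancer cells, 1 passed, Kdr, which was higher in sGC-ΔPC, and 3.35% of all genes passed in cancer cells (3.21% higher and 0.146% lower). None of 8 members passed in macrophages, where 1.15% of all genes did, none of 8 in ECs (1.67% of all genes), none of 5 in fibroblasts (2.05%), none of 3 in pericytes (2.61%) and none of 1 in granulocytes (2.62%), and no member could be counted in T cells (2.60%). By direction, 0.737% of genes were higher and 0.415% lower in macrophages, and the same 2 values were 0.793% and 0.879% for ECs. They were 0.696% and 1.35% for fibroblasts, and 0.869% and 1.74% for pericytes. The members with too few UMIs for this count were Flt4 in cancer cells (8 and 18 UMIs, a log2 ratio of 1.52 (0.25 to 2.93)) and macrophages, Vegfa in ECs, Vegfc and the 3 receptors in fibroblasts, all but Flt1, Nrp1 and Nrp2 in pericytes, all but Vegfa in granulocytes and all 9 in T cells. The median log2 ratio of all genes lay between -0.063 and 0.012 in the 5 main classes. The members' medians were 0.075 in cancer cells, -0.025 in macrophages, -0.25 in ECs, 0.039 in fibroblasts and -0.17 in pericytes.

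Vegfa was higher in sGC-ΔPC in the classes that hold most of it, by less than 2-fold. In macrophages it stood at 62.4 and 109 CPM, with a log2 ratio of 0.81 (0.72 to 0.90). In cancer cells it stood at 16.7 and 21.8 CPM (0.38 (0.33 to 0.43)). In granulocytes the values were 81.1 and 162 CPM from 29 and 68 UMIs, with a log2 ratio of 1.00 (0.35 to 1.68). The 3 ratios leaned the same way. In fibroblasts the ratio of the summed levels was 0.29 (0.12 to 0.46), but the mean over cells of the level in each cell gave -0.19, and thinned cells -0.0048, so its direction was not settled. Over all kept cells, placed or not, Vegfa stood at 23.5 and 34.3 CPM, a log2 ratio of 0.54 (0.51 to 0.58). Thinned to 2000 UMIs, 11.7% and 17.8% of macrophages and 3.31% and 4.11% of cancer cells had a Vegfa UMI.

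Vegfb did not move in cancer cells beyond its interval, with a log2 ratio of 0.00048 (-0.020 to 0.021) over 42317 and 33175 UMIs. A difference of more than 0.021 either way lies outside this interval, which covers counting error alone. It was 0.017 (-0.14 to 0.17) in macrophages. Vegfc was higher in the cancer cells of sGC-ΔPC (0.29 (0.20 to 0.38)) and lower in its ECs (-0.91 (-1.70 to -0.18)), where 57 and 22 UMIs were counted. One EC held 21 of the 57 and another 8 of the 22. Pgf was slightly higher in cancer cells (0.15 (0.059 to 0.24)), and with a stricter cancer-cell threshold its ratio there was -0.074. In ECs its summed level was also higher (0.39 (0.19 to 0.60)). That EC ratio rests on few cells: 1 cell held 92 of the 398 UMIs in sGC-ΔPC, and without the cell with the most UMIs in each library the ratio was 0.18, and with thinned cells -0.21. In pericytes Pgf was lower, with 26 and 4 UMIs and a log2 ratio of -1.77 (-3.75 to -0.25), which is below the 50 UMIs required for a count.

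Flt1 was lower in sGC-ΔPC in ECs and pericytes, the classes with its highest levels, while in cancer cells its interval included 0 (-0.069 (-0.17 to 0.035)). In ECs it stood at 1009 and 828 CPM (log2 ratio -0.28 (-0.41 to -0.16)), and in pericytes at 341 and 222 CPM (-0.62 (-1.12 to -0.14)). The EC ratio was between -0.49 and -0.45 with a lower mitochondrial limit, with cells holding cancer-cell RNA taken in, with thinned cells or as a mean over cells, and -0.13 when Flt1 was set against the UMIs of the 10 EC markers instead of all UMIs. The pericyte ratio rests on few cells. The pericyte with the most Flt1 UMIs held 26 of 143 in sGC-Ctr and 17 of 49 in sGC-ΔPC. The median level over pericytes was 139 and 0 CPM. The counting interval does not cover this spread between cells. The pericyte ratio became -1.30 when cells with cancer-cell RNA were taken in. The cancer-cell RNA level was 4.94% and 9.04% in pericytes and its part in the pericyte result was not tested. The share of ECs with a Flt1 UMI at 2000 UMIs was 72.5% (58.3 to 84.1) and 63.3% (48.3 to 76.6), with intervals that overlapped, and that of pericytes was 26.5% and 26.3%.

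Kdr in ECs differed by no more than its interval, at 293 and 278 CPM (-0.075 (-0.30 to 0.14)), and thinned cells gave 0.49. By counting error alone, the interval of the main ratio leaves out a Kdr level lower by more than 0.30 or higher by more than 0.14 on the log2 scale. The value from thinned cells lies outside it. In cancer cells Kdr was higher in sGC-ΔPC, at 0.226 and 0.464 CPM from 88 and 142 UMIs (1.04 (0.65 to 1.44)). Against their EC levels, the 10 EC markers had a median in cancer cells of 0.0701% in sGC-Ctr and 0.0846% in sGC-ΔPC. Cldn5 stood at 0.0203% and 0.0527%, with an EC level that was itself lower in sGC-ΔPC (1374 and 1005 CPM). Robo4 went the other way, at 0.0702% and 0.0619%, with an EC level that was higher in sGC-ΔPC (113 and 190 CPM). As plain levels in cancer cells, Emcn stood at 0.177 and 0.360 CPM and Gpihbp1 at 0.428 and 0.827 CPM. Cdh5 stood there at 0.397 and 0.713 CPM and Cldn5 at 0.279 and 0.530 CPM. Egfl7 was lower in sGC-ΔPC (31.7 and 31.2 CPM), and the other EC markers were higher by less. The part of RNA from ECs in the Kdr value was not tested. Flt4 in ECs stood at 81.5 and 63.7 CPM (-0.35 (-0.81 to 0.093)). In macrophages Kdr did not differ beyond its interval (-0.13 (-0.55 to 0.28)).

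Nrp1 was lower in sGC-ΔPC in macrophages, at 104 and 72.1 CPM (-0.53 (-0.61 to -0.44)), and in cancer cells, at 25.3 and 21.8 CPM (-0.21 (-0.26 to -0.17)). In ECs (-0.21 (-0.51 to 0.095)) and pericytes (-0.17 (-0.88 to 0.50)) its intervals included 0. Nrp2 was lower in macrophages, at 174 and 146 CPM (-0.26 (-0.32 to -0.19)), and level in cancer cells (-0.0022 (-0.024 to 0.020)). In fibroblasts Nrp2 had a ratio of -0.61 (-1.10 to -0.13), yet 1 sGC-Ctr fibroblast held 60 of its 119 UMIs, and without the top cell of each library the ratio was 0.29. The depth of the macrophages differed between the libraries, with medians of 10625 and 6260 UMIs, and in thinned cells 15.1% and 10.7% held a Nrp1 UMI and 24.6% and 21.1% a Nrp2 UMI.

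**Figure D3:**
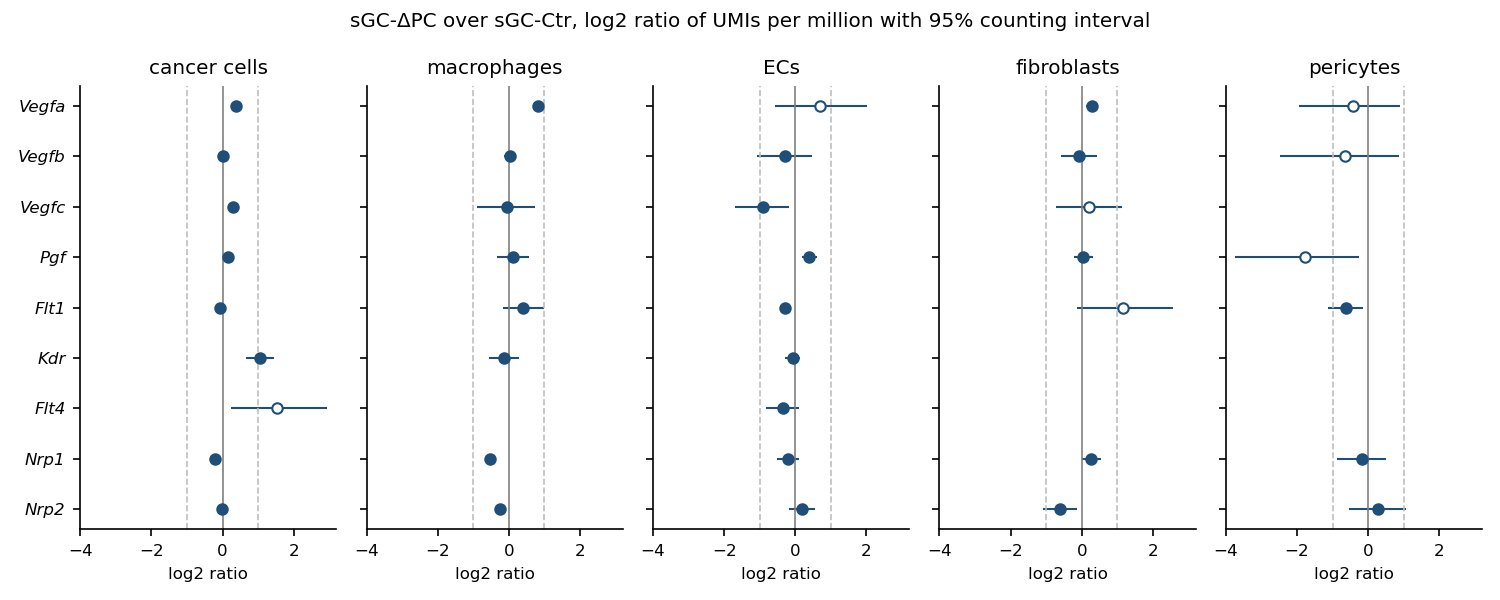
Log2 ratio of sGC-ΔPC over sGC-Ctr for the 9 genes in 5 cell classes, with 95% counting intervals as bars, filled points for at least 50 UMIs over both libraries, open points for fewer, no point for fewer than 20 UMIs, and dashed lines at 2-fold. Vegfa lies to the right of 0 in cancer cells, macrophages and fibroblasts (in fibroblasts not with thinned cells or as a mean over cells), Flt1 to the left in ECs and pericytes, and of the filled points only Kdr in cancer cells, at 1.04, is past a dashed line.

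Vegfa rose with a hypoxia score of the cell in both libraries. Cells were ranked by their summed UMIs of 21 hypoxia genes, none of them a member, after thinning to 2000 UMIs, and cut into 4 bins of equal size in each library. In macrophages, Vegfa stood from the lowest to the highest bin at 16.7, 34.9, 73.3 and 131 CPM in sGC-Ctr, and at 48.0, 84.6, 117 and 191 CPM in sGC-ΔPC. The log2 ratio of the highest over the lowest bin was 2.98 (2.70 to 3.27) and 1.99 (1.80 to 2.18). In cancer cells the level went from 10.0 to 28.2 CPM, a log2 ratio of 1.49 (1.38 to 1.61), and from 14.8 to 33.9 CPM, a log2 ratio of 1.20 (1.10 to 1.30). The bins are ranges of a score of RNA and not cell types, and oxygen was not measured in these cells.

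Pgf was also highest in the highest bin, and in cancer cells its ratio was larger than that of Vegfa by intervals that did not overlap. There it went from 2.18 to 12.9 CPM (2.56 (2.34 to 2.79)) and from 2.51 to 13.3 CPM (2.40 (2.18 to 2.63)), with 3.28 and 5.35 CPM in the next lower bin. In macrophages its ratio was 2.56 (1.52 to 3.77) and 2.40 (1.30 to 3.70), with intervals that overlapped those of Vegfa. Flt1 in cancer cells was also higher in the highest bin (0.88 (0.67 to 1.08) and 0.74 (0.51 to 0.97)). Nrp1 went the other way in both classes. In cancer cells it stood at 32.8 and 20.6 CPM in the lowest and highest bin of sGC-Ctr (-0.67 (-0.75 to -0.59)) and at 27.5 and 16.9 CPM in sGC-ΔPC (-0.70 (-0.80 to -0.60)), and in macrophages the ratios were -0.78 (-0.93 to -0.63) and -0.46 (-0.66 to -0.27). Vegfb in cancer cells was flat with this score (-0.0096 (-0.050 to 0.031) and -0.030 (-0.075 to 0.014)), as was Nrp2 (-0.024 (-0.066 to 0.018) and -0.020 (-0.066 to 0.026)). Without 6 glycolysis genes in the score, neither was flat. Vegfb was then -0.13 (-0.17 to -0.088) and -0.12 (-0.16 to -0.074), and Nrp2 0.22 (0.17 to 0.26) and 0.22 (0.17 to 0.27). The fall of Nrp1 in cancer cells was then smaller, at -0.20 (-0.29 to -0.12) and -0.27 (-0.38 to -0.17).

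The difference in Vegfa between the libraries was present in every bin, and in macrophages it was larger in the lower bins. From the lowest to the highest bin the log2 ratio of sGC-ΔPC over sGC-Ctr in macrophages was 1.52 (1.21 to 1.85), 1.28 (1.06 to 1.50), 0.67 (0.50 to 0.84) and 0.54 (0.41 to 0.67). The thinned hypoxia score of these bins was alike, with medians of 9, 15, 20 and 29 UMIs in sGC-Ctr and 10, 15, 20 and 28 in sGC-ΔPC. Thinning left out 10 macrophages of sGC-Ctr and 813 of sGC-ΔPC as too shallow. In cancer cells the 4 ratios were 0.56 (0.43 to 0.69), 0.48 (0.37 to 0.60), 0.53 (0.43 to 0.63) and 0.27 (0.19 to 0.34). There the scores were not alike, with medians of 7 and 9 UMIs in the lowest bin and of 23 and 24 in the highest. Nrp1 in macrophages was lower in sGC-ΔPC in all 4 bins, by -0.73 (-0.88 to -0.57) in the lowest and -0.41 (-0.60 to -0.21) in the highest.

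**Figure D4:**
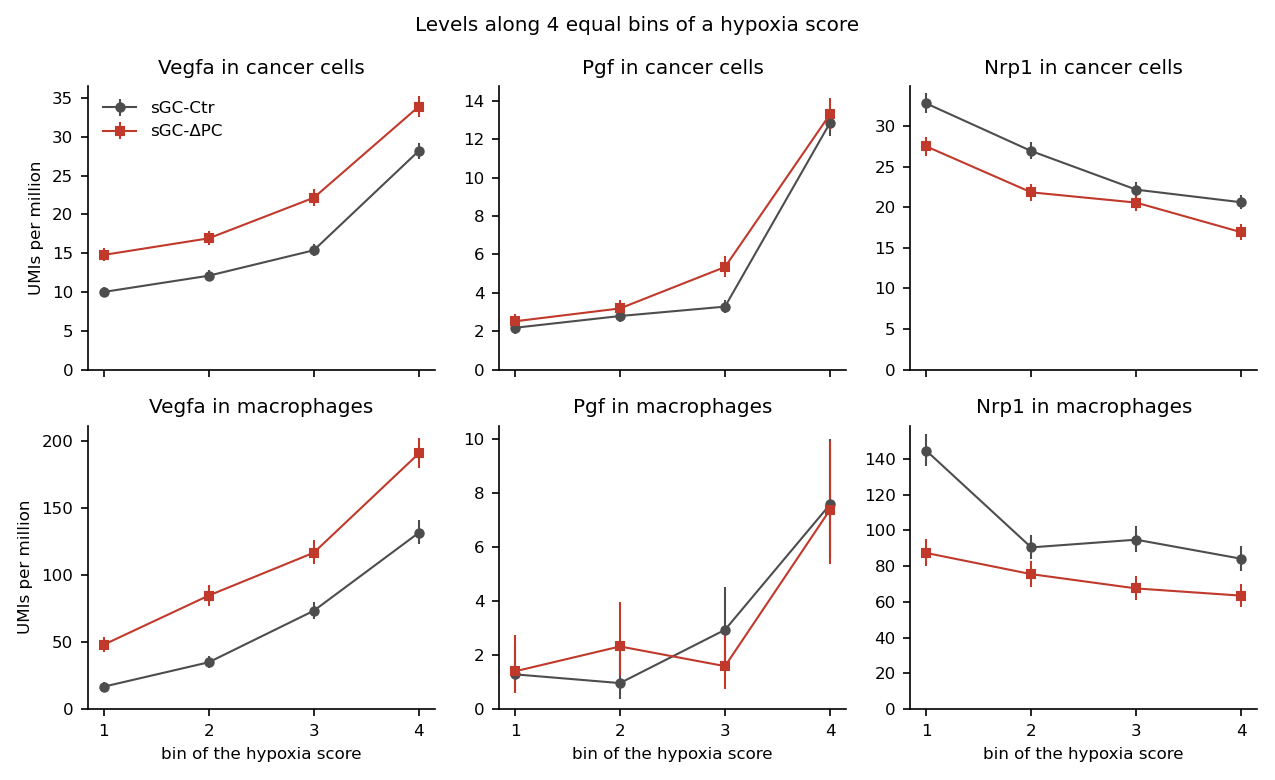
Levels of Vegfa, Pgf and Nrp1 in bins of the hypoxia score (1 lowest, 4 highest) in cancer cells (top) and macrophages (bottom), in CPM, for sGC-Ctr (circles) and sGC-ΔPC (squares) with 95% counting intervals. Vegfa climbs through the bins in both libraries, reaching 131 and 191 CPM in macrophages, Pgf stands out in the highest bin, and Nrp1 is highest in the lowest.

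Among single ECs, Flt1 and Kdr were found in most cells. With all UMIs, 92.7% (82.4 to 98.0) and 81.1% (68.0 to 90.6) of ECs had a Flt1 UMI and 90.9% (80.0 to 97.0) and 79.2% (65.9 to 89.2) a Kdr UMI, and 87.3% (75.5 to 94.7) and 73.6% (59.7 to 84.7) had both. At 2000 UMIs per cell, which 51 and 49 ECs reached, the shares with Kdr were 35.3% (22.4 to 49.9) and 40.8% (27.0 to 55.8), with Flt4 13.7% (5.70 to 26.3) and 14.3% (5.94 to 27.2), with Nrp1 15.7% (7.02 to 28.6) and 16.3% (7.32 to 29.7) and with Nrp2 19.6% (9.82 to 33.1) and 18.4% (8.76 to 32.0). The libraries overlapped for each of these. Only 2 of 55 and 6 of 53 ECs had no UMI of any of the 3 receptors. The median level over cells was 769 and 326 CPM for Flt1, 244 and 199 CPM for Kdr and 128 and 90.1 CPM for Nrp1, and the highest cell reached 2762 and 3542 CPM of Flt1. Lymphatic genes were rare: Prox1, the defining factor of lymphatic ECs, was found in 1 and 0 ECs, Ccl21a in 1 and 0, Mmrn1 in 2 and 0, Reln in none and Lyve1 in 8 and 6, while 58.2% and 50.9% of ECs had a Flt4 UMI.

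Pgf was carried by a minority of the ECs, as were the scarcer ligands. The medians of Vegfa, Vegfb, Vegfc and Pgf over cells were 0 in both libraries, and 2 cells held 50% or more of the Vegfc UMIs in each. For Pgf, 49.1% and 43.4% of ECs had a Pgf UMI, and 6 and 4 cells held 50% or more of its UMIs. ECs with at least 1 UMI of a tip-cell gene (Esm1, Apln, Angpt2 or Cxcr4, which mark the leading cells of sprouts) were most of them, 46 of 55 and 48 of 53 cells. They held 415 of 416 and 397 of 398 Pgf UMIs, beside 1348 of 1436 and 857 of 858 Flt1 UMIs. The other 9 and 5 ECs held 1 Pgf UMI in each library but were shallower, with medians of 10500 and 1869 UMIs against 25152 and 18754, and the 5 in sGC-ΔPC also held only 1 Flt1 and 1 Kdr UMI. In sGC-Ctr the 9 cells held 88 Flt1 UMIs and 34 Kdr UMIs, so there the receptors were found where Pgf was nearly not.

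**Figure D5:**
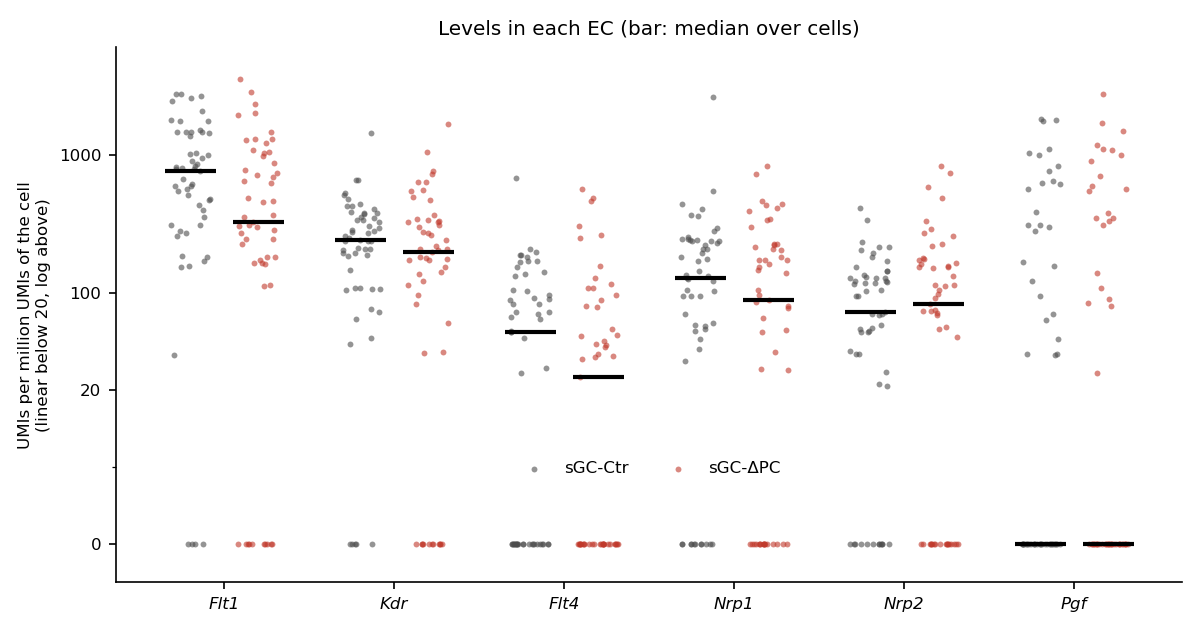
Levels of 6 members in each EC, in UMIs per 1000000 UMIs of the cell on an axis that is linear below 20 and logarithmic above, with a black bar at the median over the 55 sGC-Ctr and 53 sGC-ΔPC cells. Flt1 and Kdr are above 0 in most ECs, with Flt1 medians of 769 and 326 CPM, whereas the Pgf median is 0 in both libraries and a minority of cells carries it.

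Genes around the VEGF pathway were described by lists in each class, by the same rule of 2-fold and an interval that left out 0. Of 21 measured VEGF-responsive and tip-cell genes in ECs, 2 were higher in sGC-ΔPC and none lower, and the list's median log2 ratio was 0.061 against 0.0015 over all genes, of which 1.67% passed in either direction (0.793% higher). Esm1 (endocan, a tip-cell gene) stood at 82.9 and 259 CPM from 118 and 268 UMIs, a log2 ratio of 1.64 (1.32 to 1.97). Cxcr4, a chemokine receptor of tip cells, stood at 53.4 and 122 CPM (1.19 (0.77 to 1.62)). Angpt2, which loosens pericyte contact through TIE2, missed the 2-fold limit at 0.97 (0.78 to 1.17), and Aplnr, the apelin receptor, was at -0.93 (-1.48 to -0.39). With a mitochondrial limit of 5% 3 genes were higher, Angpt2 being the third (1.37), and with cells holding cancer-cell RNA taken in Aplnr was lower (-1.05).

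In the other classes the same list gave 3 higher genes of 21 in cancer cells, Esm1 (2.01 (1.08 to 3.03), 13 and 41 UMIs), Cxcr4 (1.42 (1.25 to 1.60)) and the pericyte-recruiting ligand Pdgfb (1.03 (0.88 to 1.18)), beside 3.21% of all genes that were higher there. Their levels there were 0.0333 and 0.134 CPM for Esm1, 1.05 and 2.82 CPM for Cxcr4 and 1.50 and 3.07 CPM for Pdgfb. ECs held Esm1 at 82.9 and 259 CPM, and macrophages held Cxcr4 at 64.3 and 89.2 CPM and Pdgfb at 179 and 175 CPM. The part of RNA from other classes in these 3 cancer-cell values was not tested. In macrophages 1 of 17, Apln (1.01 (0.48 to 1.54)), the ligand of APLNR, was higher (0.737% of all genes). In fibroblasts 1 of 13, Rcan1 (-1.50 (-2.60 to -0.53)), an inhibitor of calcineurin, was lower (1.35% of all genes), and in pericytes 1 of 6, Nr4a1 (1.11 (0.44 to 1.79)), an immediate early gene, was higher (0.869%). Of the signal transduction genes none of 25 in cancer cells, 23 in macrophages, 19 in ECs and 10 in pericytes passed. Of all genes, 3.35%, 1.15%, 1.67% and 2.61% passed in these classes. In fibroblasts 3 of 21 did, where 2.05% of all genes passed: Pik3r1 (-1.15 (-1.80 to -0.53)) and Hspb1 (-1.24 (-1.79 to -0.71)) were lower and Sphk1 (1.05 (0.54 to 1.58)) higher. Among the semaphorins and plexins that pair with neuropilins, 1 gene passed in any class, the ligand Sema3c, 1 of 5 measured in fibroblasts, with 91 and 9 UMIs (-2.81 (-3.98 to -1.82)), beside 1.35% of all genes that were lower there. Of the VEGF-C processing and lymphatic genes, Pdpn, a mucin-like surface protein that tumor cells can also carry, was higher in cancer cells (1.59 (1.44 to 1.74), 1 of 5 measured) and Ccbe1, a cofactor of VEGF-C cleavage, in macrophages (1.07 (0.67 to 1.49), 1 of 4). The shares of all genes that were higher were 3.21% in cancer cells and 0.737% in macrophages. Of 18 measured hypoxia genes in ECs 1 passed, Adm (adrenomedullin, a vasodilator peptide), which was higher, at 150.3 and 318 CPM (1.08 (0.83 to 1.33)), while 1.67% of all genes passed there, and 10 of the 18 had a log2 ratio below 0. None of the hypoxia genes passed in cancer cells, macrophages, fibroblasts or pericytes, and the list's median was 0.074 in cancer cells, 0.069 in macrophages, -0.025 in ECs, 0.096 in fibroblasts and -0.034 in pericytes, against 0.012, -0.046, 0.0015, -0.041 and -0.063 over all genes.

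The genes whose levels followed each member most closely were sought among 13658 genes over the 14 points that 7 classes in 2 libraries give, which share libraries and depth. Kdr ran with Cd300lg (Pearson r 0.99), Fam167b and Sox7, Flt4 with Kif26a (0.996), Ttc9 and Arhgef15, Flt1 with Pcdh1 (0.97), Nrarp and Cldn15, and Pgf with Srgap1 (0.99), Maged1 and Tspan6. Vegfa ran with Gys1 (0.90), B4galt5 and Mgst1, Vegfb with Fpgs (0.95), Atad3a and Sco2, and Vegfc with Ly6c1 (0.93), Cd34 and Fam171a2. Nrp1 ran with Dad1 (0.98), Zhx1 and Chpf2, and Nrp2 with Anxa3 (0.90), Agpat5 and Inip. Among the members themselves, Kdr and Flt4 were the closest pair (0.91), followed by Flt1 and Pgf (0.75), while Vegfa came no closer than 0.24 to any other member.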

How the data were processed

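Each group was measured in 1 single-cell RNA library (10x Genomics 3′ chemistry) made from the dissociated cells of 3 pooled tumors. The authors aligned and counted the reads with Cell Ranger 6.1.1 on mm10 and deposited UMI counts per gene and barcode, which were used as deposited. With limits taken from the study's methods, barcodes had to have under 10% mitochondrial UMIs and a log number of UMIs and of genes no more than 3 median absolute deviations from the median. This kept 12220 and 22498 cells, which are not the study's own set: the study also removed clusters with mixed markers, and analysed fewer cells, most of all in sGC-ΔPC. Depth was 487859656 and 436352742 UMIs in all, and 1423385 and 1035678 UMIs in ECs, and intervals and limits cover counting error only.

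The authors' cell labels were not used here, and classes were set per cell from marker genes: at least 2 markers detected, marker UMIs per 10000 above a threshold (cancer cells 8, macrophages 100, ECs 20, fibroblasts 150, pericytes 20, granulocytes 200, T cells 10), and no other class above its own lower limit. The thresholds were set after the scores were seen. Within 20% of the threshold lay 0 and 1 ECs and 2 and 1 pericytes, and outside it 7 and 59 cells for ECs and 0 and 29 for pericytes, in sGC-Ctr and sGC-ΔPC. The pericyte markers include Gucy1a1, the partner subunit of the deleted gene. No doublet caller was run, and the exclusive rule drops mixed cells. UMIs were summed per class and library (CPM), with exact Poisson, binomial (Clopper-Pearson) and conditional intervals at 95%. A pseudocount of 0.5 UMIs entered only the median ratio of all genes. No test was run.

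The members and gene lists were chosen with earlier results of these data known. Named were all 9 members, of each list up to 4 genes each way that passed the 2-fold rule, and the 3 genes most alike to each member among genes with at least 200 UMIs, by Pearson correlation of log2(CPM + 1). Angpt2, Aplnr and the markers quoted were named after their values were seen. Positions are from GENCODE release M21 and promoters from RefSeq, with all 9 members matched in each. Alternatives were no deviation filter (at least 200 genes instead), a mitochondrial limit of 5%, cells with cancer-cell RNA taken in, a doubled threshold, thinning to 2000 UMIs, means over cells, EC-marker denominators, a minimum of 20 UMIs and 2 bins of the hypoxia score. Steps were tested on simulated data. Python 3.11.15, numpy 2.4.6, scipy 1.17.1, pandas 2.3.3 and matplotlib 3.10.9 were used.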

Additional observations from a re-analysis of the deposited data

Results flagged for a closer look

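The ligands Vegfc and Pgf had ratios between the libraries that pointed opposite ways in different cell classes, each with an interval on its own side of 0. Vegfc had a log2 ratio of sGC-ΔPC over sGC-Ctr of 0.29 (0.20 to 0.38) in cancer cells and of -0.91 (-1.70 to -0.18) in ECs. Pgf had ratios of 0.15 (0.059 to 0.24) in cancer cells and 0.39 (0.19 to 0.60) in ECs, and of -1.77 (-3.75 to -0.25) in pericytes. The difference between the classes was not tested, since each group has 1 library. The EC value of Vegfc rests on 57 and 22 UMIs and the pericyte value of Pgf on 26 and 4 UMIs, and the EC value of Pgf was -0.21 in cells thinned to 2000 UMIs.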

How the results depend on the processing

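No paired analysis was possible because each group has 1 library. Of 32 log2 ratios of members, those that kept to their interval numbered 32 without the deviation filter, 28 at a mitochondrial limit of 5%, 27 with cells holding cancer-cell RNA taken in, 26 with doubled thresholds, 19 as means over cells and 10 with thinned cells. Of the ratios in the text, Vegfa in cancer cells was 0.52 at a mitochondrial limit of 5%, 0.30 with a doubled threshold, 0.29 thinned and 0.32 as a mean over cells, and in macrophages 0.91, 0.63 and 0.46 under the last 3 of these. Vegfa in fibroblasts was -0.0048 thinned and -0.19 as a mean over cells. Flt1 in ECs was -0.45 at 5%, -0.47 with cancer-cell RNA taken in, -0.49 thinned, -0.48 as a mean over cells and -0.13 per EC-marker UMIs, and Kdr in ECs 0.49 thinned. Pgf in ECs was -0.21 thinned and 0.14 as a mean over cells, and in cancer cells -0.074 with a doubled threshold. Nrp2 in fibroblasts was 0.65 as a mean over cells. Added after seeing the data, leaving out the cell with the most UMIs gave 0.18 for Pgf in ECs and 0.29 for Nrp2 in fibroblasts, with 29 of 32 within their intervals, and leaving out shared barcodes kept all 32. The Vegfa log2 ratio along the hypoxia score, with 2 bins in place of 4, was 0.96 and 0.82 in cancer cells and 1.97 and 1.22 in macrophages, and without 6 glycolysis genes (added) 1.71, 1.39, 2.56 and 1.52. With at least 20 UMIs, 4.52% of genes passed the 2-fold rule in cancer cells, 2.01% in macrophages, 3.00% in ECs, 3.48% in fibroblasts and 4.42% in pericytes, and among the members Flt4 in cancer cells (1.52) then passed beside Kdr, making 2 of 9, Pgf in pericytes (-1.77, 1 of 6) and Nrp1 in T cells (-1.28, 1 of 1, with 5.06% of all genes). For all 9 members the class with the highest level was the one given above in both libraries, except, thinned, Nrp1 (T cells and fibroblasts) and, as a mean over cells, Nrp2 in sGC-ΔPC (ECs). The causes of these shifts were not tested. With 55 and 53 ECs and 34 and 24 pericytes, depth limits every value in those classes.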
